A study of Homo sapiens with 8 samples.

Results

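The genes described here are 44 genes of the DNA replication and nucleotide synthesis machinery, given as a list of names. The rule that selects them uses no measured value, but the list was drawn up with earlier results of these data known. They were 44 of the 16796 genes listed in the count files, and all 44 passed the filter on low counts and were tested. RNA sequencing was used to measure messenger RNA in LX-2, an established human cell line of activated hepatic stellate cells, the cells that become collagen-producing myofibroblasts in the injured liver. Cells kept in serum-containing medium received vehicle (DMSO, control) or OSMI-1 at 50 µM (OGTi) for 24 h, with 4 biological replicates per group. OSMI-1 is a small-molecule inhibitor of O-GlcNAc transferase (OGT), the enzyme that modifies nuclear and cytosolic proteins with a single sugar, O-GlcNAc. The labels gave no genetic change for either group, and all libraries came from this 1 line. The comparison asked how the transcriptome of these cells changes when OGT is inhibited. The libraries held 24166756 to 28201215 counts, and 12829 to 13180 genes per library reached 10 counts. Of 8 stellate or myofibroblast markers, 7 averaged 100 or more normalized counts (counts divided by the size factor of the library), and LUM was at a mean of 1.63. The summed level of these markers was 197605 to 237908 in control and 144139 to 166931 in OGTi libraries. Of 5 hepatocyte markers 1 was listed and none had enough counts to be tested, and 4 of 5 leukocyte markers were listed. Of these, PTPRC had a mean of 5.24 normalized counts, while CD68, a lysosomal protein abundant in macrophages, had a mean of 3236 in control and 7687 in OGTi libraries. The summed level of the leukocyte markers was 2503 to 4090 in control and 5628 to 9405 in OGTi libraries, and its part in the results was not tested. Of 5 endothelial markers 4 were listed and 3 tested, with summed levels of 47.7 to 91.1 in control and 17.0 to 33.8 in OGTi libraries. Of 4 cholangiocyte markers 3 were listed and 2 tested. SOX9 had means of 834.1 in control and 1045 in OGTi libraries, and KRT7 of 110.6 and 53.9.

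DNA replication starts at origins, where the origin recognition complex (ORC) recruits CDC6 and CDT1, and these load the MCM2-7 helicase in a step called licensing, which geminin (GMNN) blocks outside G1. MCM10, CDC45 and the GINS complex turn the loaded helicase into an active one, polymerase α-primase lays down primers, polymerases δ and ε extend them, and PCNA, opened by the clamp loader RFC, holds the polymerases on DNA. FEN1 and LIG1 finish the lagging strand, replication protein A (RPA) covers single-stranded DNA, and ribonucleotide reductase (RRM1, RRM2) and thymidylate synthase (TYMS) supply deoxynucleotides. Many of these genes are transcribed as cells enter S phase, under E2F factors. In a bulk sample, fewer cells in S phase and less RNA per cell cannot be told apart.

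The 44 genes moved in both directions. After OGTi 16 were lower, 12 were higher and 16 were not called, where a gene was called at an adjusted p-value (q) of 0.05 or lower in the paired test. The share called was 63.6% of the members against 46.6% of all 14028 genes with a q. The share called lower was 36.4% of the members against 24.0% of all genes, and the share called higher was 27.3% against 22.7%. Normalized counts of the groups did not overlap for 23 of the 44 members, against 38.0% of all 14895 genes tested. These backgrounds were not matched to the members for level. Every member averaged at least 221.1 normalized counts in each group, while 10994 of the 14895 genes tested averaged 100 or more. Whether the higher shares of the members reflect their level was not tested. The same limit holds for each comparison with all genes below. The median log2 fold change of OGTi over control was -0.05 over the members and 0 over all genes. The changes were small, with a median absolute log2 fold change of 0.26 in the members called lower and 0.46 in those called higher, against 0.52 over all called genes. An absolute log2 fold change of at least 0.5 was reached by 4 lower members (MCM5, MCM6, GINS1, POLD2) and 3 higher members (ORC6, POLA2, RFC5). At the threshold, ORC2 was the last member called (q = 0.0487) and RFC2 the first not called (q = 0.0562). When libraries were scaled by their total counts instead of medians of ratios, the split became 8 lower and 16 higher.

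**Figure D1:**
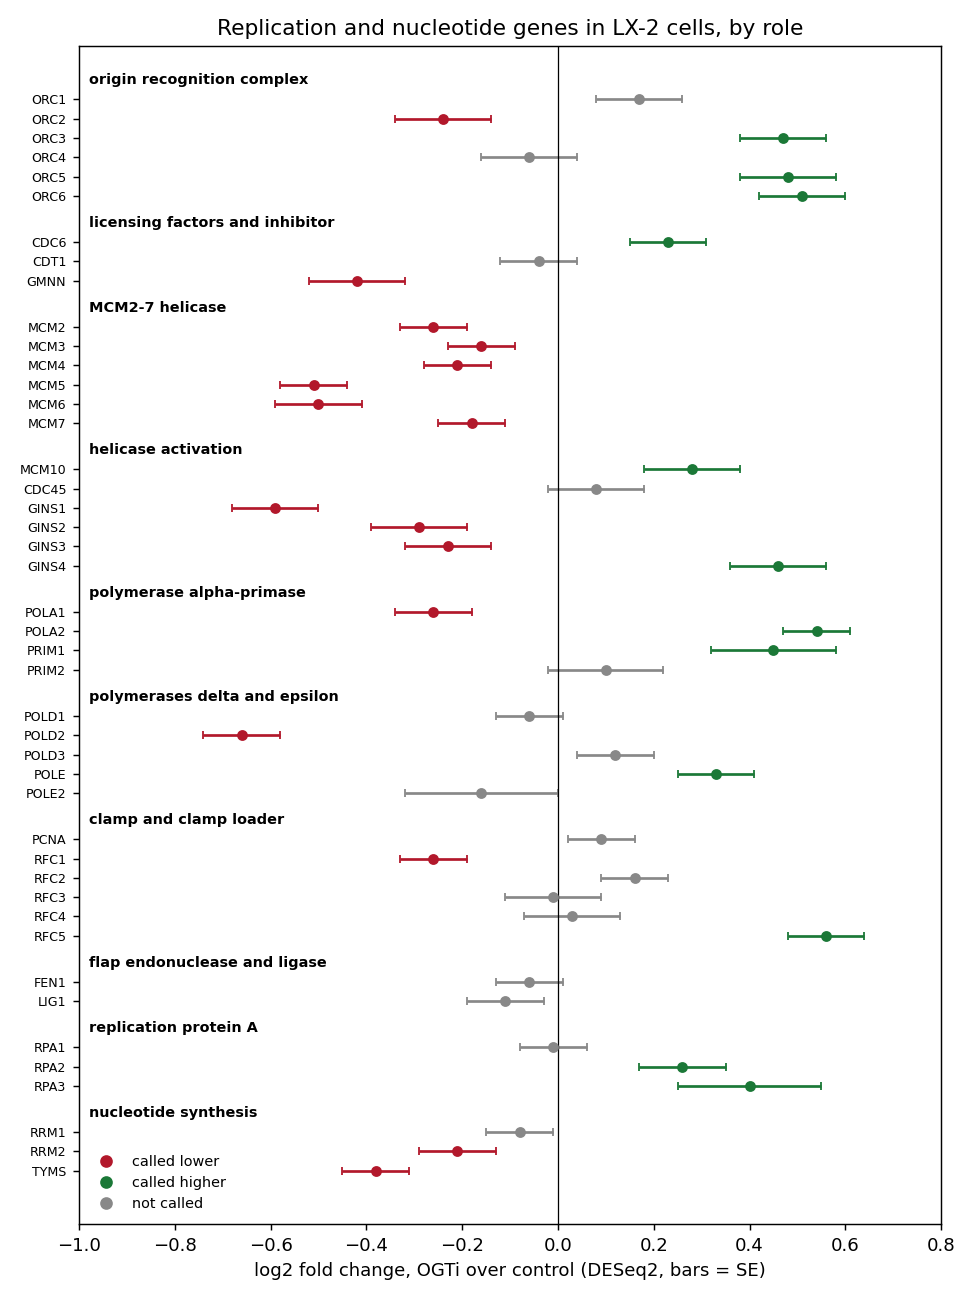
Log2 fold change of OGTi over control for the 44 members, grouped by role, with bars for the standard error and colour for the call. The MCM2-7 genes all lie left of 0, from -0.51 to -0.16, although only MCM5 and MCM6 were called with total-count scaling, while most other roles hold members on both sides.

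The promoters of these genes were read for short motifs, since genes that are switched on together in the cell cycle often share them. RefSeq (GRCh38.p14) gave a window from 250 bases before to 50 bases after a start for 38 of the 44 members, and MCM4, MCM5, GINS4, POLD3, RPA2 and RPA3 had none. The E2F letters searched were TTTGGCGC, TTTCCCGC, TTTGGCGG and TTTCGCGC, on both strands, and matches may overlap one another. They occurred in 22 of the 38 members (57.9%), against 6.5% of 11479 tested genes with a window. By call, a match was found for 11 of 14 lower members (78.6%), 5 of 9 higher members (55.6%) and 6 of 15 members not called (40.0%). The CCAAT letters of NF-Y were found in 60.5% of the members against 42.9% of tested genes, and the GGGCGG letters of SP1 in 73.7% against 74.7%. NF-Y letters were found in 78.6% of lower, 77.8% of higher and 33.3% of uncalled members. For SP1 letters these shares were 85.7%, 44.4% and 80.0%. The relation of any motif to the calls was not tested. The letters of the CHR element, TTTGAA or TTTCGAA, were found in 1 of 38 members (2.6%) against 14.7%. A match is a description of the letters, and binding of a factor was not analysed here.

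Shown here are the 150 bases before the start of 4 members with E2F letters (in capitals) that differed in their call, so that a lower, a higher and an uncalled member can be read side by side. MCM6 and TYMS were lower, CDC6 was higher and CDT1 was not called. The windows are chr2:135876444-135876593 (minus strand) for MCM6, chr18:657503-657652 (plus) for TYMS, chr17:40287729-40287878 (plus) for CDC6 and chr16:88803639-88803788 (plus) for CDT1, each written 5′ to 3′ along its gene. In these 150 bases MCM6 held 3 matches, of which a pair overlap, and CDT1 held 2 matches side by side. TYMS and CDC6 held 1 each. In the full windows of 300 bases that were searched, MCM6 held 4 matches, CDC6 and CDT1 2 each and TYMS 1.
MCM6: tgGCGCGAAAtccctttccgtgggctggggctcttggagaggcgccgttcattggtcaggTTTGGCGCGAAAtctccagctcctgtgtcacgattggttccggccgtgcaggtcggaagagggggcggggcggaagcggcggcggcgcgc
TYMS: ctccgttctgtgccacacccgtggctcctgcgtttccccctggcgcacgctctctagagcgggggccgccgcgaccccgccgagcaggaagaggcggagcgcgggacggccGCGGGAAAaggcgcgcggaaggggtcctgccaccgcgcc
CDC6: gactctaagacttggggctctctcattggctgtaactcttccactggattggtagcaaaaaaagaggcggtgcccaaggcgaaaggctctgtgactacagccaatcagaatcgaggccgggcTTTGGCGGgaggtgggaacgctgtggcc
CDT1: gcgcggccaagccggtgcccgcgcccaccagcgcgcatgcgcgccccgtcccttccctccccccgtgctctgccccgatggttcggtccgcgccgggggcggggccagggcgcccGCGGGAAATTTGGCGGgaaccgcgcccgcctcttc

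Of the 6 subunits of ORC, which marks origins, 3 were called higher after OGTi, 1 was called lower and 2 were not called. The shares were 50% higher and 16.7% lower, against 22.7% and 24.0% of all genes with a q. The median log2 fold change of the 6 subunits was 0.32. ORC6 (chromosome 16, 46689643 to 46698394) had 928.4, 974.2, 803.3 and 832.1 normalized counts in control replicates 1 to 4 and 1285, 1512, 1177 and 1078 in OGTi replicates 1 to 4. Every OGTi library was above every control library, and the log2 fold change was 0.51 ± 0.09 (SE, q = 3.80e-07). ORC3 had 1105, 938.5, 1070 and 1089 normalized counts in the control libraries and 1501, 1262, 1521 and 1549 in OGTi libraries. Its groups did not overlap either, and it rose by 0.47 ± 0.09 on the log2 scale (q = 2.71e-07). ORC5 rose from 539.9 ± 42.7 to 755.8 ± 71.4 normalized counts (SD, n = 4 each, q = 1.93e-05). ORC2 went the other way, with 937.2, 793.8, 1012 and 877.8 normalized counts in the control libraries and 734.7, 767.4, 773.9 and 786.3 in OGTi libraries. Its log2 fold change was -0.24 ± 0.10 (q = 0.0487), and the call was lost whichever replicate was left out (q = 0.0522 to 0.243). ORC1, an ATPase subunit (log2 fold change 0.17 ± 0.09, q = 0.109), and ORC4 (-0.06 ± 0.10, q = 0.663) were not called. The expected counts of ORC6 and ORC4 were fractional in 7 of 8 libraries, since some of their reads also aligned elsewhere, so their levels are less certain.

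The licensing factors and their inhibitor differed from one another. CDC6, the loader of MCM2-7, had 2839, 3013, 3345 and 3002 normalized counts in the control libraries and 3405, 3907, 3586 and 3375 in OGTi libraries. The groups did not overlap, and CDC6 rose by 0.23 ± 0.08 on the log2 scale (q = 0.00829), a call lost without replicate 2 (0.18, q = 0.132). GMNN, which sequesters CDT1, had 1018, 1137, 971.1 and 969.4 normalized counts in the control libraries and 702.8, 909, 706.6 and 755.3 in OGTi libraries. Every OGTi library lay below every control library, and GMNN fell by 25.2% (log2 fold change -0.42 ± 0.10, q = 7.14e-05). CDT1 had 2348 ± 46.1 normalized counts in the control libraries and 2278 ± 125 in OGTi libraries (log2 fold change -0.04 ± 0.08, q = 0.661). Its expected counts were fractional in 4 of 8 libraries.

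All 6 subunits of the MCM2-7 helicase, the ring that unwinds DNA, were called lower after OGTi, and each was lower in all 4 pairs, but with total-count scaling only MCM5 and MCM6 kept the call. Of all genes with a q, 24.0% were called lower. The median log2 fold change of the 6 subunits was -0.23, and within replicate pairs 1 to 4 it was -0.24, -0.38, -0.21 and -0.23. MCM5 (chromosome 22, 35400134 to 35425431) had 6603, 7219, 6935 and 6453 normalized counts in the control libraries and 4609, 4842, 5188 and 4537 in OGTi libraries. The groups were far apart, and MCM5 fell by 29.6% (log2 fold change -0.51 ± 0.07, q = 5.93e-13). MCM6 (chromosome 2, 135839626 to 135876443) had 1869, 2136, 2329 and 2053 normalized counts in the control libraries and 1481, 1245, 1676 and 1534 in OGTi libraries. It fell by 29.4%, again without overlap (log2 fold change -0.50 ± 0.09, q = 3.53e-07). The fold changes of the other four were smaller. MCM2 fell from 5927 ± 315 to 4955 ± 242 normalized counts (log2 fold change -0.26 ± 0.07, q = 0.000995) and MCM4 from 8754 ± 550 to 7582 ± 764 (-0.21 ± 0.07, q = 0.00638). MCM7 fell from 10773 ± 637 to 9528 ± 668 (-0.18 ± 0.07, q = 0.0176) and MCM3 from 6222 ± 194 to 5558 ± 110 (-0.16 ± 0.07, q = 0.0354). The groups overlapped for MCM4 alone, whose expected counts were fractional in 3 of 8 libraries.

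Total-count scaling gave MCM2 -0.17 (q = 0.0558), MCM3 -0.07 (q = 0.410), MCM4 -0.12 (q = 0.167) and MCM7 -0.09 (q = 0.300) on the log2 scale. The call of MCM3 was also lost without replicate 2 (q = 0.201), 3 (q = 0.165) or 4 (q = 0.110), that of MCM4 without replicate 2 (q = 0.123) or 4 (q = 0.0556), and that of MCM7 without replicate 1 (q = 0.0714), 2 (q = 0.101) or 4 (q = 0.140) or without the replicate block (q = 0.0542). Whether MCM5 and MCM6 differed from the other subunits in their change was not tested.

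The factors that activate the helicase split within the GINS complex itself, whose 4 subunits form 1 tetramer. GINS1 (chromosome 20, 25391008 to 25452700) had 1508, 1382, 1350 and 1324 normalized counts in the control libraries and 982.4, 933.1, 886.4 and 903.5 in OGTi libraries. The groups were well separated, and GINS1 fell by 33.4% (log2 fold change -0.59 ± 0.09, q = 2.08e-10). GINS4 had 1044, 855.8, 960.7 and 889.3 normalized counts in the control libraries and 1297, 1291, 1178 and 1382 in OGTi libraries. Every OGTi library was above every control library, a rise of 37.4% (log2 fold change 0.46 ± 0.10, q = 1.88e-05). GINS2 (-0.29 ± 0.10, q = 0.00641) and GINS3 (-0.23 ± 0.09, q = 0.0271) were called lower on the log2 scale, calls that were lost without replicate 1, 2 or 4 (q = 0.0519 to 0.0747 for GINS2 and 0.0948 to 0.176 for GINS3). MCM10, which helps to start unwinding, had 1082, 1040, 1056 and 961 normalized counts in the control libraries and 1350, 1573, 1106 and 1067 in OGTi libraries. It was higher in all 4 pairs although the groups overlapped (log2 fold change 0.28 ± 0.10, q = 0.0168), and the call was lost without replicate 1 (0.27, q = 0.0666) or 2 (0.18, q = 0.244). CDC45, the third partner of the active helicase, was not called (0.08 ± 0.10, q = 0.522).

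**Figure D2:**
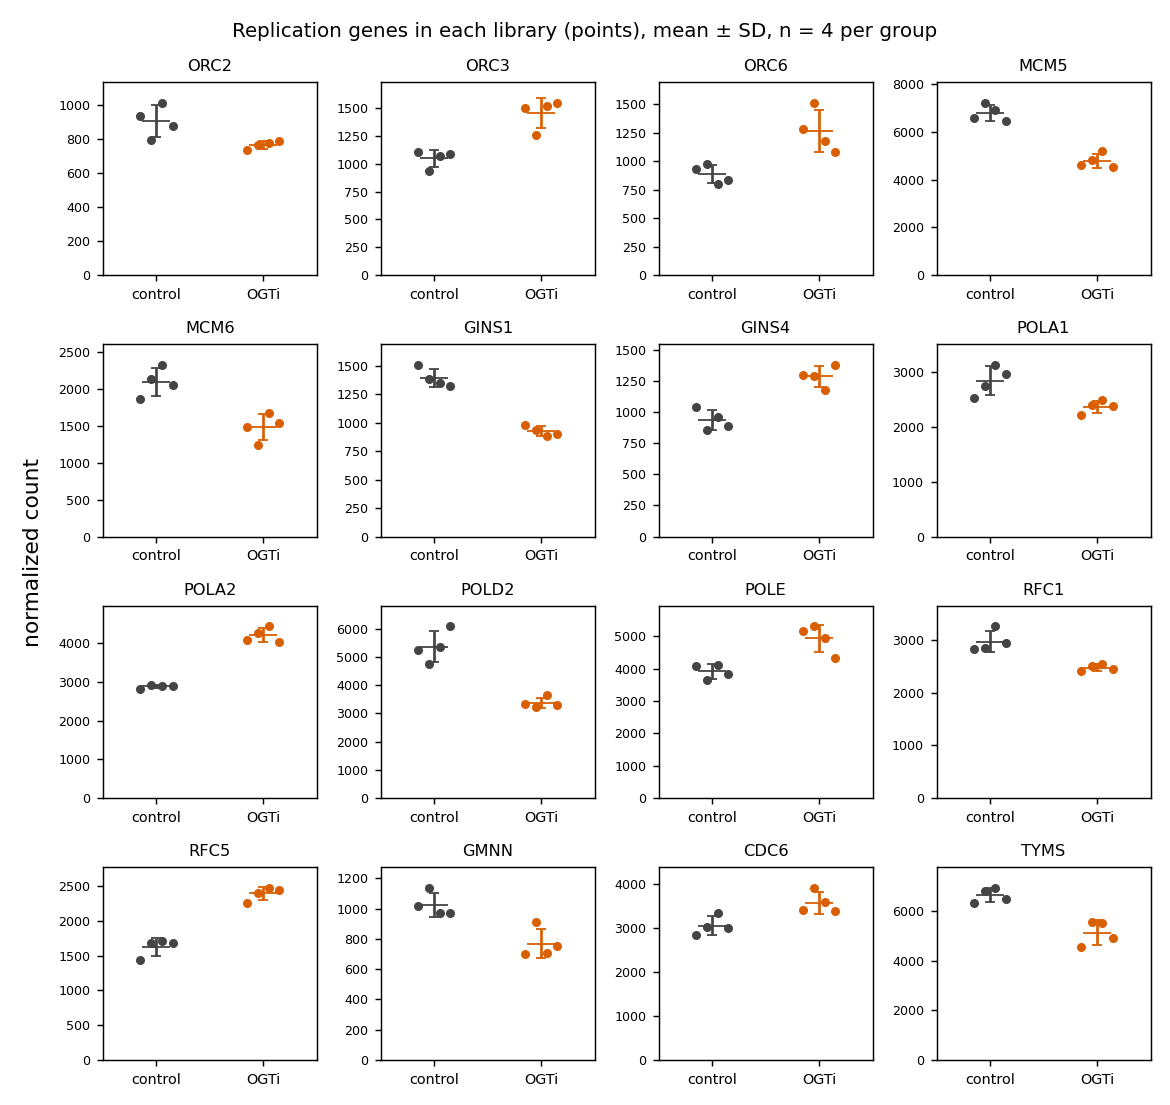
Normalized counts of 16 members in each library (points), with the mean and SD of 4 libraries per group and axes that start at 0. ORC2, MCM5, MCM6, GINS1, POLA1, POLD2, RFC1, GMNN and TYMS lie lower in every OGTi library than in any control library. ORC3, ORC6, GINS4, POLA2, POLE, RFC5 and CDC6 lie higher. All 16 are among the 23 of 44 members whose groups did not overlap, against 38.0% of all genes tested. Those genes were not matched to the members for level. Members whose groups overlapped are not shown.

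Within polymerase α-primase, the catalytic and the accessory subunit went in opposite directions. POLA2 (chromosome 11, 65261913 to 65305959), the accessory subunit, had 2817, 2922, 2902 and 2885 normalized counts in the control libraries and 4088, 4270, 4435 and 4023 in OGTi libraries. The control libraries lay close together and far below the OGTi libraries, and POLA2 rose by 45.8% (log2 fold change 0.54 ± 0.07, q = 1.29e-13), with fractional expected counts in 8 of 8 libraries. POLA1, the catalytic subunit, had 2517, 2734, 3129 and 2958 normalized counts in the control libraries and 2206, 2394, 2476 and 2368 in OGTi libraries. The groups did not overlap, and POLA1 fell by 16.5% (log2 fold change -0.26 ± 0.08, q = 0.00182). PRIM1, the catalytic primase subunit, had 415, 341, 402.2 and 366.1 normalized counts in the control libraries and 562, 398.8, 579.7 and 561 in OGTi libraries. Only OGTi replicate 2 reached into the control range, and PRIM1 was called higher (log2 fold change 0.45 ± 0.13, q = 0.00111). PRIM2, the other primase subunit, was not called (0.10 ± 0.12, q = 0.517). Its expected counts were fractional in 3 of 8 libraries.

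Of the 5 members that are subunits of polymerases δ and ε, 1 was lower, 1 was higher and 3 were not called. The share was 20% in each direction, against 24.0% lower and 22.7% higher of all genes with a q. POLD2 (chromosome 7, 44114631 to 44124358), a regulatory subunit of polymerase δ, had 5240, 4741, 5359 and 6082 normalized counts in the control libraries and 3341, 3243, 3640 and 3302 in OGTi libraries. The lowest control library was far above the highest OGTi library, and POLD2 fell by 36.7%, the largest fall among the 44 members (log2 fold change -0.66 ± 0.08, q = 7.61e-16). POLE, the catalytic subunit of polymerase ε, had 4094, 3634, 4106 and 3833 normalized counts in the control libraries and 5148, 5309, 4933 and 4338 in OGTi libraries. It was higher without overlap (log2 fold change 0.33 ± 0.08, q = 0.000113). The catalytic subunit of polymerase δ, POLD1, was lower in 4 of 4 pairs by little (-0.06 ± 0.07, q = 0.538), and POLD3 (0.12 ± 0.08, q = 0.247) and POLE2 (-0.16 ± 0.16, q = 0.438) were not called either.

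The sliding clamp PCNA was not called, at 8207 ± 544 normalized counts in the control libraries and 8710 ± 449 in OGTi libraries (log2 fold change 0.09 ± 0.07, q = 0.305), although total-count scaling called it higher (0.18, q = 0.0335). In the clamp loader, RFC5 (chromosome 12, 118013588 to 118033130) had 1436, 1683, 1715 and 1677 normalized counts in the control libraries and 2266, 2398, 2477 and 2451 in OGTi libraries. All OGTi libraries were higher, and the rise of 47.6% was the largest among the members (log2 fold change 0.56 ± 0.08, q = 7.32e-12). RFC1, the large subunit, had 2835, 2842, 3259 and 2939 normalized counts in the control libraries and 2408, 2502, 2548 and 2442 in OGTi libraries. It was lower without overlap (log2 fold change -0.26 ± 0.07, q = 0.00151). RFC2 was higher in 4 of 4 pairs without passing the threshold (0.16 ± 0.07, q = 0.0562), and was called without replicate 1 (0.20, q = 0.0462) and with total-count scaling (0.25, q = 0.00258). RFC3 (-0.01 ± 0.10, q = 0.959) and RFC4 (0.03 ± 0.10, q = 0.817) were not called. Expected counts were fractional in 7 of 8 libraries for RFC2 and in 4 for RFC3, so their levels are less certain.

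The enzymes that join Okazaki fragments were not called. LIG1, the ligase, had 2162, 2389, 2617 and 2166 normalized counts in the control libraries and 2167, 2143, 2363 and 1957 in OGTi libraries, and the groups overlapped (log2 fold change -0.11 ± 0.08, q = 0.237). FEN1, which trims the flap, had 4595 ± 278 and 4407 ± 316 normalized counts in the control and OGTi groups (q = 0.507).

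RPA, the heterotrimer that coats single-stranded DNA, had its smaller subunits higher and its large one not called. RPA2 had 1451, 1161, 1233 and 1171 normalized counts in the control libraries and 1639, 1509, 1450 and 1380 in OGTi libraries. Control replicate 1 overlapped the OGTi range, but RPA2 was higher in all 4 pairs (log2 fold change 0.26 ± 0.09, q = 0.00811), a call lost without replicate 2 (q = 0.109) or 4 (q = 0.0534). RPA3 rose from 266.3 ± 30.2 to 351.3 ± 19.0 normalized counts (log2 fold change 0.40 ± 0.15, q = 0.0144), a call lost without replicate 2 (q = 0.136), 3 (q = 0.0736) or 4 (q = 0.0899). RPA1 had 4892 ± 86.7 and 4886 ± 430 normalized counts in the control and OGTi groups (q = 0.958).

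Of the nucleotide synthesis members, TYMS, which makes thymidylate, changed most. TYMS had 6346, 6835, 6943 and 6511 normalized counts in the control libraries and 4557, 5573, 5514 and 4900 in OGTi libraries. The groups were separate, and TYMS fell by 23.1% (log2 fold change -0.38 ± 0.07, q = 2.04e-07). RRM2, the small subunit of ribonucleotide reductase that peaks in S phase, had 4273, 4338, 5039 and 4669 normalized counts in the control libraries and 3725, 4456, 3940 and 3718 in OGTi libraries. It was lower in 3 of 4 pairs and called lower (log2 fold change -0.21 ± 0.08, q = 0.0243), and the call was lost without replicate 1 (q = 0.0542), 3 (q = 0.174) or 4 (q = 0.187). RRM1, the large subunit, was not called (-0.08 ± 0.07, q = 0.382).

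Since members of 1 role went opposite ways, the ratio of their normalized counts was taken within each library, which does not depend on how libraries are scaled. All 14 ratios of a higher to a lower member of the same role are given as a description without a test, because the pairs were chosen by their calls. Their differences between groups ran from 0.51 to 1.04 on the log2 scale. The log2 ratio of GINS4 to GINS1 was -0.53, -0.69, -0.49 and -0.57 in control and 0.40, 0.47, 0.41 and 0.61 in OGTi libraries. GINS1 was thus the more counted of these subunits in every control library, and GINS4 in every OGTi library. The log2 ratio of POLE to POLD2 went from -0.45 ± 0.15 to 0.54 ± 0.15, that of RFC5 to RFC1 from -0.87 ± 0.10 to -0.05 ± 0.04, and that of POLA2 to POLA1 from 0.03 ± 0.12 to 0.83 ± 0.05 (SD, n = 4 each). The log2 ratio of CDC6 to GMNN, which sequesters CDT1 and not CDC6, went from 1.58 ± 0.17 to 2.22 ± 0.11.

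**Figure D3:**
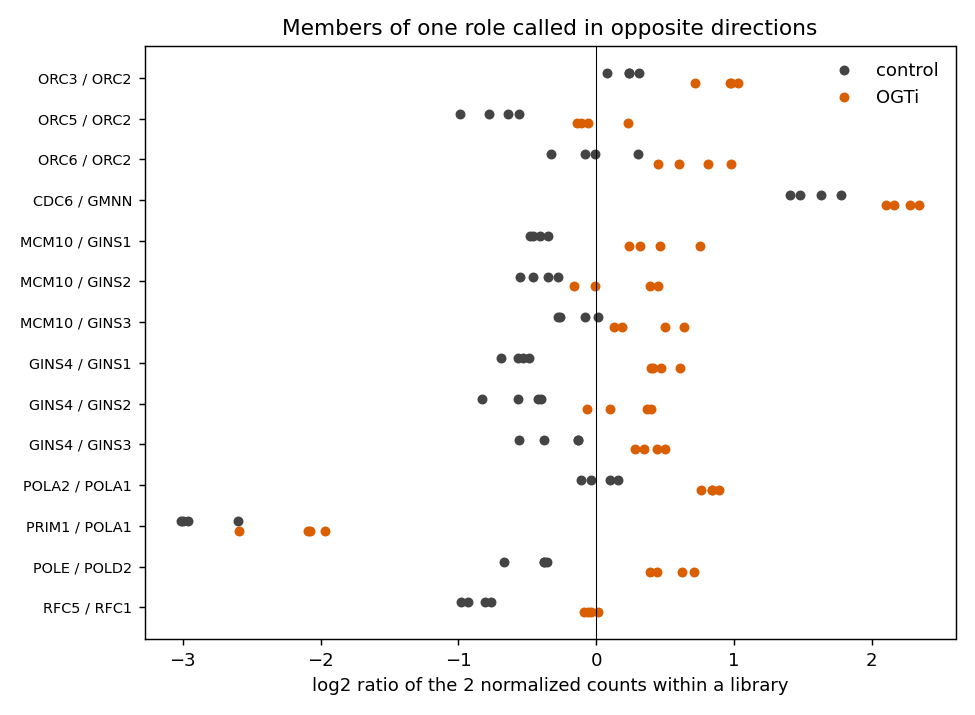
Log2 ratio of the normalized counts of a higher and a lower member of the same role in each library (points), for 14 such ratios in control and OGTi. Each ratio lies higher in all 4 OGTi libraries than in any control library, by 0.51 to 1.04 between group means. The pairs were chosen by their calls in these same libraries, which favours such a separation, so it is no test.

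Levels of different genes were compared per kilobase (kb) of the canonical transcript, which need not be the form these cells use. In control libraries PCNA had the highest level, with 6432 normalized counts per kb, before MCM7 (4367), TYMS (4128) and POLD2 (3329), and POLE2 (148.3) and RPA3 (131.8) had the lowest. Among the MCM2-7 subunits, which form a ring with 1 copy of each, MCM6 had 558.7 normalized counts per kb in control and 395.4 in OGTi libraries. MCM2, MCM3, MCM4 and MCM5 had 1726, 2028, 2155 and 1967 normalized counts per kb in control libraries. Members called lower had a median control level of 1108 normalized counts per kb, those called higher 460.6 and those not called 702.7. The highest level among members called higher was 813.1 normalized counts per kb, and members called lower reached 4367. This limit depended on the calls, since RFC2 (1640 normalized counts per kb) was called higher without replicate 1 and with total-count scaling, and PCNA (6432) with total-count scaling. These levels share libraries and depth, and the relation of level to change was not tested.

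**Figure D4:**
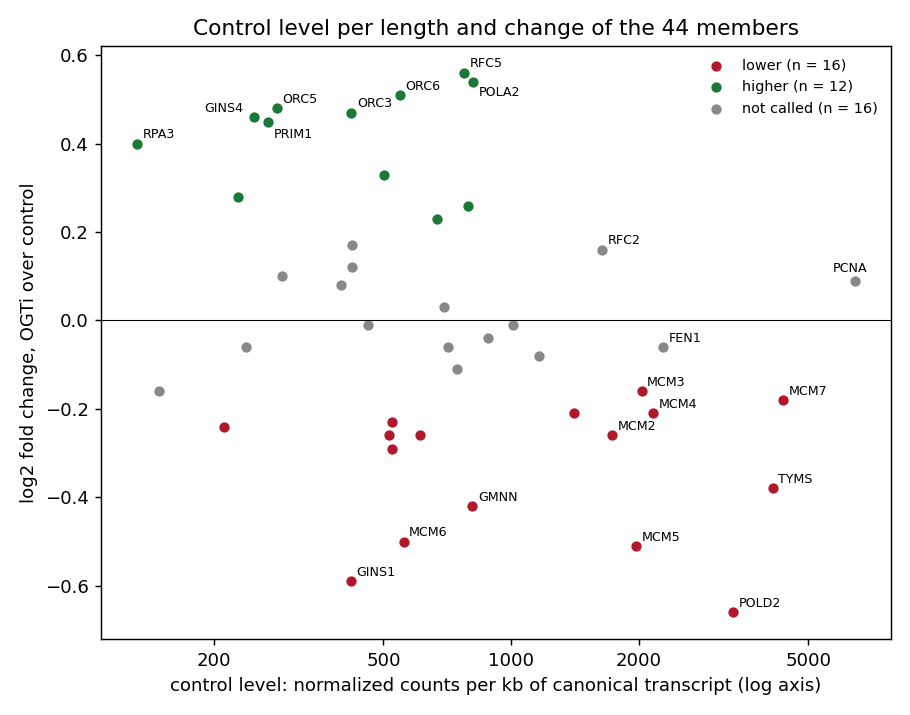
Control level in normalized counts per kb of the canonical transcript (log axis) against the log2 fold change of OGTi over control, 1 point per member, coloured by call. The 12 members called higher all lie at or below 813.1 normalized counts per kb, while those called lower extend to 4367. With total-count scaling RFC2 (1640) and PCNA (6432) were also called higher, RFC2 also without replicate 1.

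Beyond the 44 members, 76 other genes of replication and nucleotide supply were listed, of which 28 were lower, 15 were higher and 33 were not called, with a median log2 fold change of -0.08. The share called lower was 36.8% and the share called higher 19.7%, against 24.0% and 22.7% of all genes. With total-count scaling, 21 of the 76 were lower and 22 higher. Of 19 genes of purine and pyrimidine synthesis 8 were lower and 3 higher, and of 16 other deoxynucleotide enzymes 7 were lower and 3 higher. Of 15 regulators of origin firing and forks 5 were lower and 3 higher. Of 14 other replisome and maturation genes 3 were lower and 4 higher, with a median log2 fold change of 0.07. Of 9 genes of chromatin replication and maintenance methylation 3 were lower and 2 higher, and of 3 topoisomerases 2 were lower and 0 higher. IMPDH1, an isoform of the rate-limiting enzyme of guanine nucleotide synthesis, was the 1 gene of the 76 called with an absolute log2 fold change of at least 1. It had 3915, 3045, 3061 and 3043 normalized counts in the control libraries and 1674, 1548, 1176 and 1176 in OGTi libraries (log2 fold change -1.24 ± 0.09, q = 2.45e-42). The following were chosen after their values were seen. IMPDH2, the other isoform, rose from 5287 ± 316 to 8104 ± 376 normalized counts (log2 fold change 0.62 ± 0.07, q = 5.14e-17). TOP2A, the topoisomerase that untangles replicated chromosomes, had 17819, 17793, 20301 and 18505 normalized counts in the control libraries and 9700, 9797, 9945 and 9805 in OGTi libraries, less than any control library in each case (log2 fold change -0.92 ± 0.06, q = 1.42e-44). The small accessory subunits of the polymerases also went apart, with POLD4 of polymerase δ higher (0.63 ± 0.10, q = 6.78e-10) and POLE4 of polymerase ε lower (-0.63 ± 0.12, q = 2.83e-06). PFAS of purine synthesis (-0.79 ± 0.08, q = 6.70e-21) and DHODH of pyrimidine synthesis (-0.80 ± 0.15, q = 1.22e-06) were lower.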

How the data were processed

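Polyadenylated RNA of 8 libraries was sequenced with a strand-specific protocol. The authors aligned reads to hg38 with Bowtie2 2.3.5.1 and deposited expected counts per gene from RSEM 1.3.1, which are not scaled for depth and share a read that aligns to several genes between them. A deposited table of the authors' own comparison, made with DESeq2 1.36.0, was not used. Groups came from the labels. The 1 control library whose treatment label misspells DMSO is named control in its title.

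Expected counts were rounded, and genes under 10 counts in total were left out, which left 14895 of 16796. OGTi was compared with control by the Wald test of DESeq2 1.42.0 (R 4.3.3) with replicate number as a block, after the study's methods, and median-of-ratios size factors. A gene was called at a Benjamini-Hochberg q of 0.05 or lower over 14028 genes. The block was checked by correlating deviations from group means over 10994 genes that averaged 100 or more normalized counts. This gave 0.372, 0.391, 0.165 and 0.327 for pairs 1 to 4. Control replicate 3 gave 0.343 with OGTi replicate 4, and control replicate 4 gave 0.255 with OGTi replicate 3. Each of these crossed values is above the 0.165 of labelled pair 3, so the check did not separate replicates 3 and 4. The replicate numbers were kept as labelled. No sequencing batch was labelled. The scripts were tested on simulated data.

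All members were named. Values in every library were given for called members with an absolute log2 fold change of at least 0.5, for the called member with the largest positive Wald statistic in each role, and for the member with the largest absolute Wald statistic in roles with no member of the first kind, and values in every library of any other member were added after they were seen. Of the other pathway genes, those called with an absolute log2 fold change of at least 1 were named. Levels per kb and positions used GENCODE release 44. Log2 ratios were taken per library. Alternatives were edgeR 4.0.16 quasi-likelihood tests, fits without the block, other size factors and filters, and each replicate left out. The ratios were added after seeing the data. The members and the gene lists were chosen with earlier results of these data known.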

Additional observations from a re-analysis of the deposited data

Results flagged for a closer look

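In a group of 4 libraries, a library was singled out when its gap to the nearest other library, divided by the range of the group, was above the critical value of Dixon's test. This was tested in 88 groups (44 members in control and OGTi), chance gives about 1 in 20, or 4.4, and 6 were found. ORC3 had 1262 normalized counts in OGTi replicate 2, and 1501 to 1549 in the other OGTi libraries. PRIM1 had 398.8 in the same library, and 561 to 579.7 in the others. CDT1 had 2417 in control replicate 3, and 2318 to 2332 in the other control libraries. PCNA had 9017 in control replicate 2, and 7864 to 8025 in the other control libraries, and 8041 in OGTi replicate 1, and 8858 to 8972 in the other OGTi libraries. RFC5 had 1436 in control replicate 1, and 1677 to 1715 in the other control libraries.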

How the results depend on the processing

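Over 12 alternatives, 16 of the 28 called members kept their call and direction in each: GMNN, MCM5, MCM6, GINS1, POLA1, POLD2, RFC1 and TYMS lower, and ORC3, ORC5, ORC6, GINS4, POLA2, PRIM1, POLE and RFC5 higher. The other 12 lost the call in at least 1 alternative, and 0 called members reversed.

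Without the replicate block, DESeq2 called 15 members lower and 12 higher. The edgeR quasi-likelihood test called 15 and 12 with the replicate block and 12 and 12 without it. Without the block MCM7 lost its call in both tools, MCM4 (q = 0.0690) and RRM2 (q = 0.0585) in edgeR alone, and MCM3 in edgeR with (q = 0.0553) and without it (q = 0.0653). Total-count scaling gave 8 lower and 16 higher members and shifted the median of all genes by 0.095 on the log2 scale. It gave median log2 fold changes of 0.04 for all members, 0.41 for ORC, 0.05 for the licensing factors, -0.14 for MCM2-7, 0.02 for helicase activation, 0.03 for polymerases δ and ε, 0.15 for the clamp and its loader and 0.00 for FEN1 and LIG1. Uncalled members changed sign with it, to 0.03 for ORC4, 0.05 for CDT1, 0.03 for POLD1, 0.08 for RFC3, 0.03 for FEN1, 0.08 for RPA1 and 0.01 for RRM1.

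With each replicate left out in turn, 9 to 13 members were lower and 8 to 12 higher, and 9 to 15 of the other pathway genes were higher. Over these fits ORC4 ran from -0.13 to 0.02, RFC3 from -0.05 to 0.04, RFC4 from -0.01 to 0.08 and RPA1 from -0.04 to 0.05. Total-count scaling also ended the calls of ORC2, GINS2, GINS3 and RRM2 and called ORC1 (q = 0.00846) and POLD3 (q = 0.0297) higher, ORC2 also lost its call with TMM size factors and with independent filtering off, and the cause of these changes was not tested. With 4 pairs, differences near 0.2 on the log2 scale sat close to the threshold.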
